A study of Homo sapiens with 4 samples.

Results

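Expression of 10 genes whose transcription is driven by ERK signalling was examined in T24 cells, a line established from a human bladder carcinoma and known for carrying an activated HRAS allele. They are the feedback inhibitors SPRY2, SPRY4, SPRED1 and SPRED2, the transcription factors ETV4, ETV5, FOSL1 and EGR1, and the early-response genes IER3 and PHLDA1. They were chosen by name, outside the DUSP phosphatases, with earlier results of these data known. All 10 were found among 60623 genes and passed the filter on low counts that left 14862 genes for testing. RNA was sequenced in 2 libraries of control T24 cells and 2 libraries of T24 cells overexpressing CBX7, the chromobox protein that reads methylated histone H3 within Polycomb repressive complex 1. All cells were grown in RPMI medium with fetal calf serum. The study's methods describe full-length CBX7 cloned into a pCDH-3xFLAG vector. What the control cells carried, and whether a line was 1 clone or a pool, is not given in the sources used here. The labels do not say that the libraries of a group came from separate cultures, so p-values measure the spread between these libraries, which may be technical.

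In the RAS pathway, activated RAS recruits RAF, which signals through MEK to ERK. ERK phosphorylates ETS-family and other nuclear factors, so that immediate-early genes such as EGR1 are transcribed within minutes of a stimulus, and longer-lived outputs such as FOSL1, ETV4 and ETV5 follow sustained activity. Sprouty and SPRED proteins are made in the same response and act back on the pathway upstream of ERK, which is why their transcripts are widely used as a readout of ERK output. The study placed ERK signalling downstream of CBX7 in bladder carcinoma cells and concluded that CBX7 lowers it through AKR1B10. Its readout was phosphorylated ERK on protein blots, which was lower in xenografts of T24 cells overexpressing CBX7. The comparison of these transcripts between control and CBX7 cells bears on the transcriptional side of that question. Phosphorylated ERK cannot be read from RNA.

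The deposited expected counts, which are estimates that need not be whole, summed to between 20800910 and 25135488 per library. CBX7 itself had 261.41 and 203.31 expected counts in the control libraries and 42852.46 and 35641.29 in the CBX7 libraries, so the labels of all 4 libraries matched its level. Introduced and endogenous CBX7 transcripts are counted together. Among markers, KRT7, KRT8, KRT18 and VIM were abundant (mean 1273, 900.1, 1184 and 2479 TPM), whereas KRT5 was at 0 and CDH1, TP63, KRT20 and the 4 uroplakin genes had means of 0.103 TPM or less, so these markers of basal, luminal and differentiated urothelium were absent or nearly so from this labelled bladder line. KRT19 (11.66 TPM), EPCAM (1.19 TPM) and GATA3 (0.398 TPM) were detected. KRT19 had a mean of 7.14 TPM in control and 16.19 TPM in CBX7 libraries and FN1 547.6 and 282.8 TPM, with adjusted p = 0.35 and 0.60 in edgeR. Of 4 immune, 3 endothelial and 4 stromal markers, CD68, ACTA2 and COL1A1 reached a mean of 1 TPM (8.55, 5.6 and 1.89 TPM). COL1A1 had 1.03 and 1.26 TPM in control and 0.88 and 4.4 TPM in CBX7 libraries. CBX7 replicate 1 stood apart from the other libraries. Over the 11077 better-covered genes (mean of 100 counts or more), the Spearman correlation of gene length with the log2 ratio of CBX7 over control was -0.62 between the replicates numbered 1 and 0.042 between those numbered 2. Long genes were thus relatively low in CBX7 replicate 1. The same correlation was -0.70 for CBX7 replicate 1 over 2 and -0.49 for control replicate 1 over 2.

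The 10 genes covered a wide range of transcript levels (TPM, an abundance that is divided by length and so allows genes to be compared). FOSL1 was highest, with a mean of 436.7 TPM over the 4 libraries, a level at or above that of 98.1% of the genes tested. IER3 followed with 84.95 TPM, and then PHLDA1 (50.98 TPM), ETV4 (42.76 TPM) and ETV5 (40.5 TPM). The feedback inhibitors formed the lower part of the order, with SPRY2 at 15.19, SPRED2 at 14.5, SPRY4 at 9.14 and SPRED1 at 6.91 TPM. EGR1 was lowest at 1.15 TPM. The steps from FOSL1 to IER3, from IER3 to PHLDA1, from ETV5 to SPRY2 and from SPRED1 to EGR1 separated the ranges of the 4 libraries. All other neighbours overlapped. SPRY2 exceeded SPRED2 in 2 of 4 libraries, and PHLDA1 exceeded ETV4, and ETV4 exceeded ETV5, in 3 of 4.

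**Figure D1:**
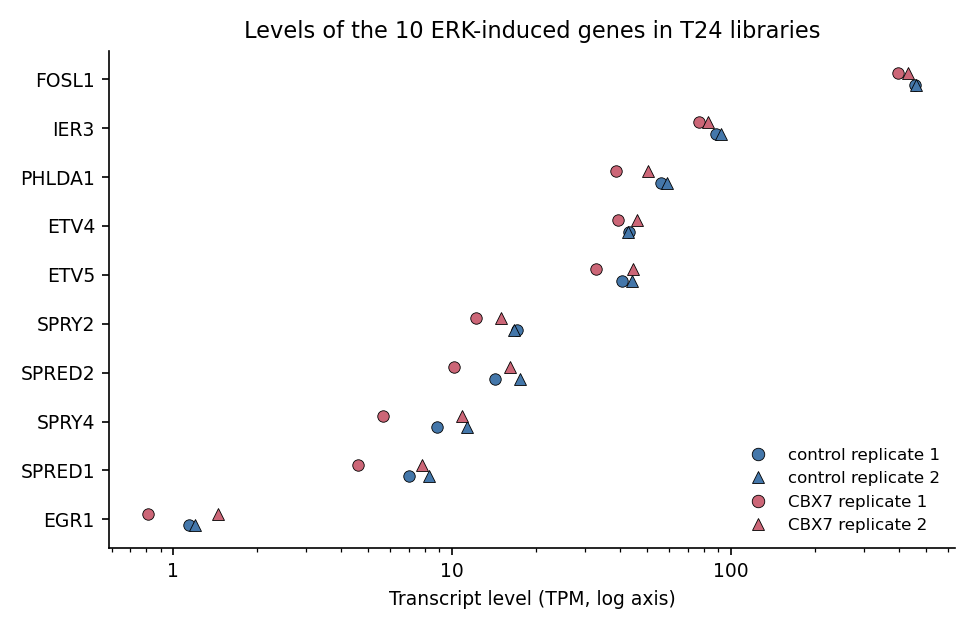
Transcript level of each of the 10 genes (rows) in TPM on a log axis, with 1 point per library (blue, control; red, CBX7; circles, replicate 1; triangles, replicate 2). FOSL1 lies highest in every library (396.35 to 461.68 TPM) and EGR1 lowest (0.81 to 1.45 TPM), and CBX7 replicate 1 is the lowest of the 4 libraries for each gene; on this scale the median of all genes tested also moved, by -0.081 in log2(TPM + 1).

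No difference between control and CBX7 cells in these 10 transcripts passed the test against the spread between libraries. In edgeR's quasi-likelihood test, 0 of 10 passed an adjusted p of 0.05 (adjusted p 0.951 to 0.996), against 0.0202% of all genes tested (3 of 14862). At an unadjusted p under 0.05 there were also 0 of 10, against 4.74% of all genes. DESeq2's Wald test and limma on log2 TPM likewise called 0 of 10, against 67 of 14862 genes with DESeq2 and 2 or 3 with limma. The log2 fold change was below 0 for 7 genes and above 0 for 3, with a median of -0.12 beside 0.0020 over all genes tested. The median was -0.073 without CBX7 replicate 1 and -0.23 without CBX7 replicate 2. On log2(TPM + 1) all 10 were below 0, with a median of -0.23 beside -0.081 over all genes. The groups did not overlap for SPRY2 and PHLDA1, whose CBX7 libraries were both lower, a pattern held by 14.8% of all genes tested. No member had both CBX7 libraries higher, against 15.4% of all genes. For a single gene, permuting 2 against 2 libraries exactly (two-sided) gives p = 0.333 at best.

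**Figure D2:**
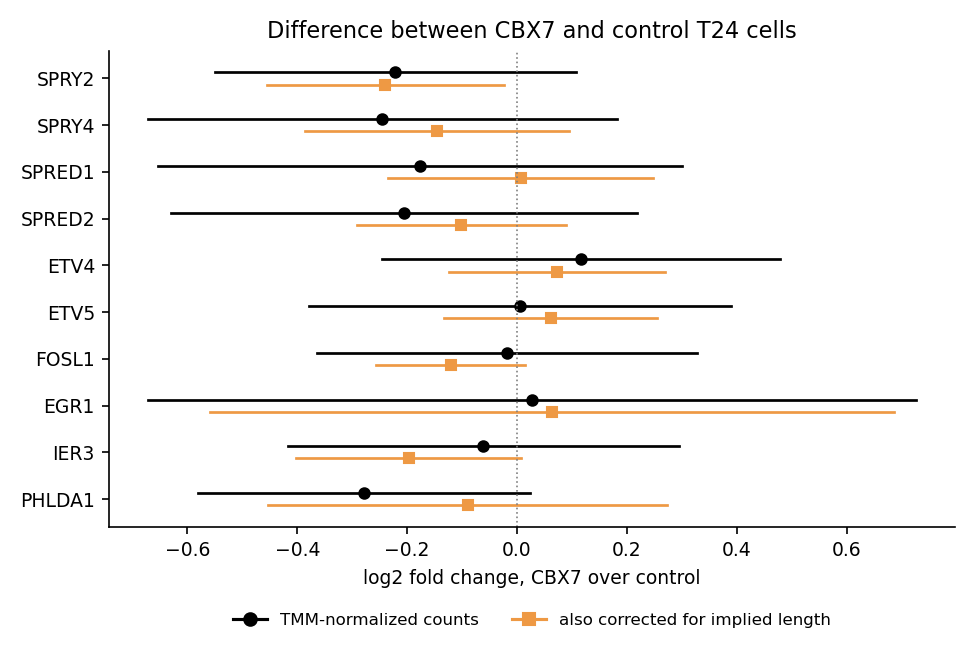
Log2 fold change of each gene in CBX7 over control cells, with 95% intervals from edgeR, from TMM-normalized counts (black circles) and after a further correction for the transcript length implied by count and TPM (orange squares). Each black interval includes 0, and of the orange ones that of SPRY2 does not (-0.46 to -0.02). The intervals are not adjusted for the number of genes. With this correction, chosen after seeing the data, SPRY2 had an adjusted p = 0.55 in edgeR.

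The Sprouty proteins are membrane-associated inhibitors that restrain receptor tyrosine kinase signalling to ERK. SPRY2 (ENSG00000136158, chromosome 13, 80335976 to 80340951, minus strand; here and below the positions are those of GRCh38 in GENCODE 29) had 27.79 and 25.96 CPM (counts scaled to library size by TMM and not divided by length) in the control libraries and 23.27 and 22.83 CPM in the CBX7 libraries. Both CBX7 libraries lay below both control libraries, and the replicates of each group were close to each other. The fitted difference was 0.858-fold (95% interval 0.683 to 1.08, adjusted p = 0.951 in edgeR). SPRY4 (ENSG00000187678, chromosome 5, 142310427 to 142326455, minus strand) had 26.99 and 32.44 CPM in control and 22.65 and 27.48 CPM in CBX7 cells. Here the groups overlapped, because CBX7 replicate 2 exceeded control replicate 1, and the difference was 0.844-fold (interval 0.628 to 1.13). Within each replicate number the SPRY4 ratio was nearly the same, -0.25 on the log2 scale in replicate 1 and -0.24 in replicate 2.

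The start of SPRY2 is shown because CBX7 acts within a Polycomb complex, and Polycomb complexes are known to occupy CpG-rich starts. The 250 bases before the most upstream of its 3 RefSeq starts (GRCh38.p14, chr13:80341127-80341376, minus strand) are printed 5′ to 3′ with each CpG in capitals.
SPRY2: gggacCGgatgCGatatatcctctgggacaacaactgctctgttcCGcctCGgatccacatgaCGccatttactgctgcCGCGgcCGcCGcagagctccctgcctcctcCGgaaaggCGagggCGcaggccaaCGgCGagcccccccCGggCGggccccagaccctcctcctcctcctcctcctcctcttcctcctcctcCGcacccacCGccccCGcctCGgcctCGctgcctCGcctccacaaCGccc
This stretch holds 23 CpG dinucleotides, against a median of 11 in the same window of 35116 promoters. The entry at this start has a ratio of observed to expected CpG of 0.846, and those at the other 2 SPRY2 starts have 0.531 and 0.417, below the median of all promoters. RefSeq promoter entries of 300 bases were found for 6 of the 10 genes (9 starts in all: SPRY2, SPRY4, SPRED1, SPRED2, EGR1 and PHLDA1). Their median GC content was 65% and their median ratio of observed to expected CpG was 0.827, beside 58.7% and 0.579 over all promoters. No chromatin measurement accompanies these libraries, so the CpG content is a description of sequence.

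SPRED1 and SPRED2 are Sprouty-related inhibitors, and SPRED1 is known to bring the RAS GTPase-activating protein neurofibromin to the membrane. SPRED1 (ENSG00000166068, chromosome 15, 38252326 to 38357249, plus strand) had 39.18 and 40.3 CPM in control cells. In CBX7 cells it had 29.32 CPM in replicate 1 and 41 CPM in replicate 2. Its CBX7 libraries therefore lay on opposite sides of the controls, and the difference was 0.884-fold (interval 0.636 to 1.23). SPRED2 (ENSG00000198369, chromosome 2, 65310851 to 65432637, minus strand) had 45.97 and 52.25 CPM in control and 37.6 and 47.58 CPM in CBX7 cells, a 0.867-fold difference (interval 0.646 to 1.16). Its groups overlapped, with CBX7 replicate 2 between the controls.

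When CBX7 replicate 2 was left out, so that the lone CBX7 library was assumed to vary like the control group, 4 members passed an adjusted p of 0.05 in edgeR: SPRY4 (log2 fold change -0.39), SPRED1 (-0.44), SPRED2 (-0.39) and PHLDA1 (-0.31). In that fit 35.5% of all genes tested were called (5491 of 15452). When CBX7 replicate 1 was left out, 0 members passed, against 2.59% of all genes tested. In that fit the log2 fold change was 0.050 for SPRED1, -0.04 for SPRED2 and -0.11 for SPRY4, whereas PHLDA1 had -0.25 (adjusted p = 0.32) and SPRY2 had -0.23 (adjusted p = 0.60), close to their values with all libraries.

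ETV4 and ETV5 belong to the PEA3 group of ETS transcription factors, which are induced by ERK when the repressor CIC is displaced. ETV4 (ENSG00000175832, chromosome 17, 43527844 to 43579620, minus strand) had 62.23 and 54.82 CPM in control and 66.96 and 59.98 CPM in CBX7 cells, a 1.08-fold difference (interval 0.844 to 1.39). In each replicate number the CBX7 library was above its control, yet the groups overlapped. ETV5 (ENSG00000244405, chromosome 3, 186046308 to 186110318, minus strand) had 97.4 and 107.2 CPM in control and 92.92 and 112.4 CPM in CBX7 cells. The CBX7 libraries bracketed the controls, and the fold difference was 1.003 (interval 0.769 to 1.31). Both genes share exon sequence with a neighbour, ETV4 with DHX8 on the opposite strand (68 bases) and ETV5 with DGKG on the same strand (164 bases). DHX8 had 1528 to 1900 counts and DGKG 93 to 108 counts in the 4 libraries, and whether the counting used strand is not given in the sources used here.

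FOSL1, the FOS-family protein FRA-1 that pairs with JUN proteins in AP-1, is stabilized and transcriptionally induced by sustained ERK activity. It (ENSG00000175592, chromosome 11, 65892049 to 65900573, minus strand) had 461.2 and 443.7 CPM in control and 482.4 and 410.7 CPM in CBX7 cells. The CBX7 libraries were the highest and the lowest of the 4, and the difference was 0.987-fold (interval 0.777 to 1.25). FOSL1 made up most of the FOS family in these cells, with 91.6% to 94.7% of the family's summed TPM in each library, while FOSL2 made up 3.98% to 6.94%, FOSB 1.2% to 1.32% and FOS 0.111% to 0.214%.

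EGR1, a zinc-finger factor that is among the fastest genes to respond to ERK, was near the low end of what was measured. It (ENSG00000120738, chromosome 5, 138465490 to 138469315, plus strand) had 62 and 55 expected counts in control and 53 and 70 in CBX7 cells, or 2.598 and 2.62 CPM against 2.195 and 3.133 CPM. The CBX7 libraries lay on either side of controls that were close together. The difference was 1.02-fold, with the widest interval of the 10 (0.628 to 1.66). EGR2, EGR3 and EGR4 had at most 0.179 CPM in any library and were not tested.

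The EGR1 start is shown because it carries the serum response elements through which ERK-activated ternary complex factors are known to act. The 250 bases before its RefSeq start (GRCh38.p14, chr5:138465229-138465478, plus strand) are printed 5′ to 3′ with both matches to the CArG box, the binding motif of serum response factor, in capitals.
EGR1: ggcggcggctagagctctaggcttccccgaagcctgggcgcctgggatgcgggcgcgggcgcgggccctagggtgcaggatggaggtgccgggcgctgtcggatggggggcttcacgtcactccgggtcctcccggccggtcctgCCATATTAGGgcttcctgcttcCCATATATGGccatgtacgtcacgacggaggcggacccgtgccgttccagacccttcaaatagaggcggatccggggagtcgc
The matches run from base -105 to -96 and from -83 to -74, counted from the start site. Of 35116 RefSeq promoters, 1.29% hold a CArG box, and of the 9 starts of these genes EGR1's was the only one. Searched on both strands, the AP-1 motif TGANTCA was found in the more downstream of 2 SPRED2 starts (7.71% of all promoters), and CCGGAAGT (ETS, 4.14%), TGACGTCA (CRE, 1.85%), GCGTGGGCG (EGR, 0.795%), TGAATGAA (CIC, 1.65%) and TGAATGGA (CIC, 1.03%) were found in none of the 9. These are matches of letters within short windows and say nothing of binding.

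IER3 is an early-response protein linked to survival under stress and growth-factor signalling. It (ENSG00000137331, chromosome 6, 30743199 to 30744554, minus strand) had 68.61 and 68.73 CPM in control and 71.02 and 60.6 CPM in CBX7 cells. The controls were nearly identical and lay between the CBX7 libraries, and the difference was 0.958-fold (interval 0.749 to 1.23). The antisense gene IER3-AS1 had 0 counts in every library.

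PHLDA1, a pleckstrin-homology-like protein induced by growth factors and used as a readout of MEK inhibition, gave the smallest p of the 10. It (ENSG00000139289, chromosome 12, 76025447 to 76033932, minus strand) had 245.6 and 246.9 CPM in control and 199.1 and 206.9 CPM in CBX7 cells. Both CBX7 libraries were below both controls, and the replicates of each group were within a few percent of each other. The difference was 0.824-fold (interval 0.669 to 1.02), with an adjusted p = 0.951 in edgeR. PHLDA1 is also among the longest of the 10 transcripts, and after correction for the length implied by count and TPM its log2 fold change was -0.09 (interval -0.45 to 0.27) instead of -0.28. With correction for the deposited length it was -0.15 (standard error 0.11), and the uncorrected ratio within replicate 2 was -0.26 on the log2 scale.

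The replicate 1 ratios of the members were lower for longer transcripts. The deposited length and the length implied by the ratio of count to TPM differed for some genes, most for SPRED2 (1365 bases in the table, 5064 implied) and ETV5 (2213 and 4017). Over the 10 members the Spearman correlation of implied length with the log2 ratio of CBX7 over control was -0.87 in replicate 1 and -0.20 in replicate 2. Over the 11077 genes it was -0.71 and 0.045. These points share their libraries and are given as descriptions. The shortest transcripts, IER3 (1252 bases) and FOSL1 (1627 bases), were above 0 in replicate 1 (0.050 and 0.065 on the log2 scale) and below 0 in replicate 2 (-0.18 and -0.11). SPRED1, the longest (8702 bases), was at -0.42 in replicate 1 and 0.025 in replicate 2.

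**Figure D3:**
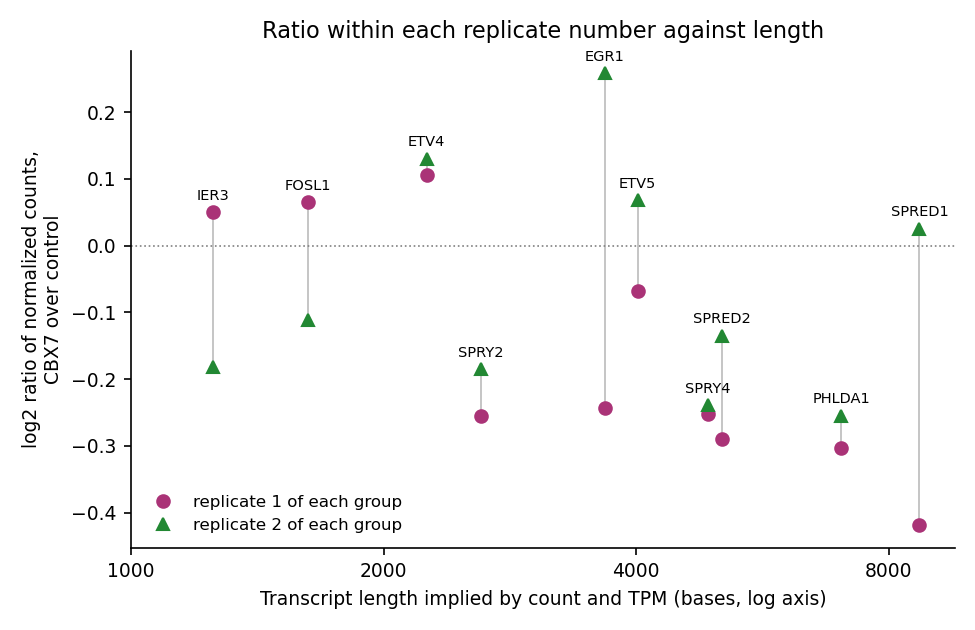
Log2 ratio of TMM-normalized counts in CBX7 over control cells within each replicate number (circles, replicate 1; triangles, replicate 2) against the transcript length implied by count and TPM, in bases on a log axis; grey lines join the points of a gene. The replicate 1 ratio runs from 0.065 for FOSL1 and 0.106 for ETV4 down to -0.42 for SPRED1, whereas SPRY2, SPRY4, SPRED2 and PHLDA1 are below 0 in both replicates.

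After correction for implied length, an alternative chosen after seeing the data, 0 of 10 members passed the adjusted threshold, against 36 of 14862 genes tested. Of the 7 negative values, 4 moved toward 0. SPRED1 went to 0.0070, PHLDA1 to -0.09, SPRED2 to -0.10 and SPRY4 to -0.15 on the log2 scale. SPRY2, with an implied length of 2611 bases, stayed at -0.24 (interval -0.46 to -0.02, adjusted p = 0.55 in edgeR). IER3 went to -0.20 (interval -0.40 to 0.0080) and FOSL1 to -0.12 (interval -0.26 to 0.014), further from 0 than without the correction. The part of the length trend in the uncorrected differences was not tested further.

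The families of the members showed which relatives carried the transcripts in T24 cells. SPRY2 made up 48.3% to 57.1% of Sprouty TPM and SPRY4 26.5% to 35%, with SPRY1 at a mean of 4.03 TPM and SPRY3 at 0.485 TPM. SPRED2 made up 54.5% to 59.9% of SPRED TPM, and SPRED3 had 3.94 TPM. ETV4 and ETV5 were close to equal, with 44.9% to 51.6% and 43% to 46.4% of PEA3-group TPM, and ETV1 had 6.42 TPM. IER5 and IER2, relatives of one another that share only the early-response name with IER3, had 53.53 and 36.86 TPM. The control and CBX7 shares did not overlap for the 3 PHLDA genes, nor for SPRY1 and FOS among the other families. PHLDA1 made up 30.9% and 33.6% of its TPM in control libraries and 17.4% and 24.5% in CBX7 libraries, while PHLDA2 made up 59.9% and 59.2% in control and 72.7% and 65.4% in CBX7 libraries. PHLDA3 made up 9.1% and 7.2% in control and 9.87% and 10.1% in CBX7 libraries. These shares are descriptions with no test, and those of a family depend on each other because they sum to a whole. On normalized counts, 14.8% of all genes tested were lower in both CBX7 libraries than in both controls, and 15.4% were higher. PHLDA1 has an implied length of 7018 bases, and the part of the length trend in its share was not tested.

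**Figure D4:**
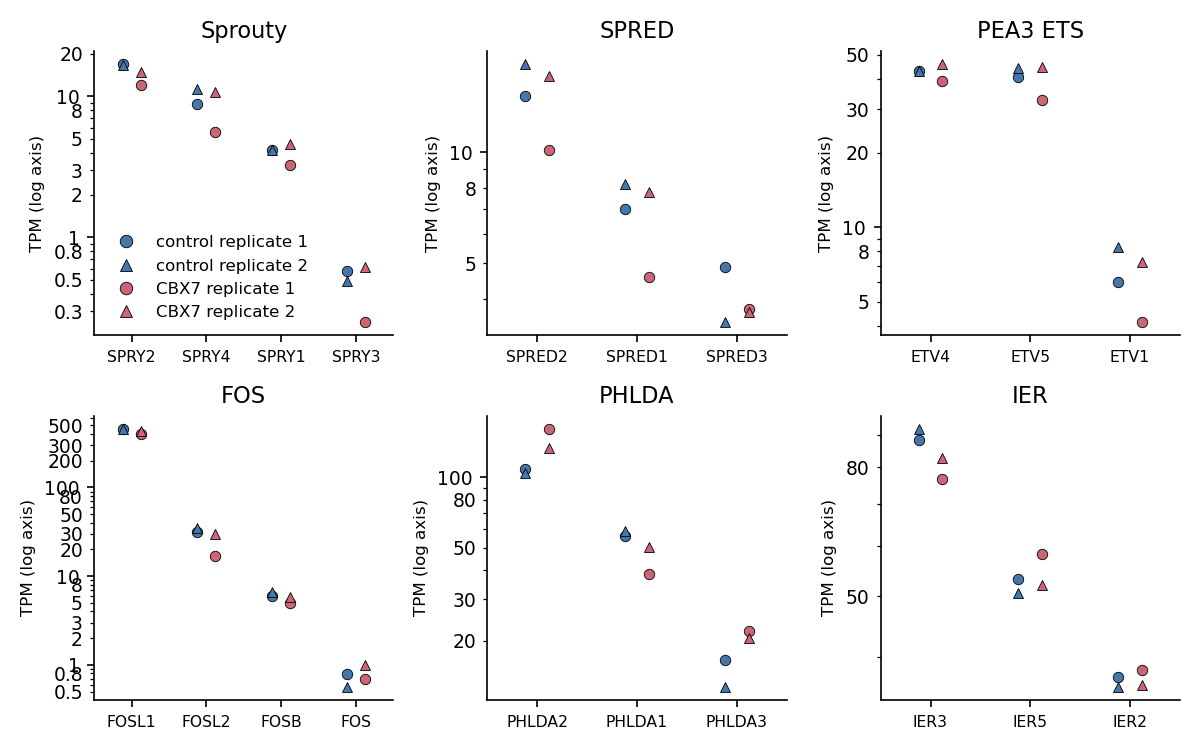
Transcript level in TPM (log axes that differ between panels) of the members and their relatives, with 1 point per library (blue, control; red, CBX7; circles, replicate 1; triangles, replicate 2). FOSL1 exceeds FOSL2, FOSB and FOS in every library. PHLDA2 and PHLDA3 are higher in both CBX7 libraries than in both controls, and PHLDA1, SPRY2, FOSL1, FOSL2, FOSB and IER3 are lower. On normalized counts, 15.4% of all genes tested were higher and 14.8% lower in this way.

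Of 14 family mates 11 were tested and 0 passed the adjusted threshold, with a median log2 fold change of 0.14. PHLDA3, a p53-induced inhibitor of AKT at the membrane, had 14.33 and 13.48 CPM in control and 24.64 and 18.58 CPM in CBX7 cells (log2 fold change 0.64, standard error 0.19, adjusted p = 0.78 in edgeR). PHLDA2, an imprinted growth-restraining gene, had 56.58 and 52.25 CPM in control and 101.4 and 66.15 CPM in CBX7 cells (0.62, standard error 0.23, adjusted p = 0.95). FOSL2, encoding FRA-2, had 157.7 and 170.3 CPM in control and 99.92 and 144.2 CPM in CBX7 cells (-0.43, standard error 0.20, adjusted p = 0.95). CBX7 replicate 1 was the more extreme CBX7 library for all 3. Without it the log2 fold changes were 0.42 for PHLDA3, 0.29 for PHLDA2 and -0.18 for FOSL2, and 0 of the 3 passed, against 2.59% of all genes. Without CBX7 replicate 2 they were 0.82, 0.90 and -0.72, and all 3 passed in a fit with 1 CBX7 library that called 35.5% of all genes.

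Of 20 other ERK-induced genes, all tested, 0 passed and the median was 0.026, with 12 above 0 and 8 below. Over all genes tested, 7472 were above 0 and 7390 below. The highest by level were CCN1, a matricellular protein (342.9 TPM), and CCND1, cyclin D1 (213.5 TPM), with log2 fold changes of 0.062 (standard error 0.14) and 0.032 (0.13). The study reported lower cyclin D1 protein with ectopic CBX7, which these RNA values do not measure. ARC, an activity-regulated gene known chiefly from neurons, stood furthest out. It had 2.39 and 2.19 CPM in control and 7.95 and 7.56 CPM in CBX7 cells, so the groups were well apart at a low level. Its log2 fold change was 1.76 (standard error 0.20), with an adjusted p = 0.21 in edgeR and an adjusted p = 0.000796 in DESeq2. With every library kept, it also passed with no filter, with correction for implied length and with a block for replicate number. Genes called in all were 67 with DESeq2, 265 with no filter, 36 with correction for implied length and 270 to 361 with the block. In the other fits with every library it did not pass, with adjusted p from 0.075 (correction for deposited length, edgeR) to 0.942 (limma on log2(TPM + 1)). With any single library left out, its log2 fold change was 1.70 to 1.82. TRIB1, a pseudokinase, had a log2 fold change of 0.35 (standard error 0.17, adjusted p = 0.95). It was 0.49 and passed without CBX7 replicate 1 (adjusted p = 0.034 in edgeR, where 2.59% of all genes passed) and was 0.20 without CBX7 replicate 2. VGF, a secreted neuroendocrine peptide precursor, had 0.94 (standard error 0.50, adjusted p = 0.95) at a mean of 0.628 TPM. It was 0.41 without control replicate 1 and 1.71 without control replicate 2.

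Of 18 repressors, cofactors and partners that act on the members or on RAS, all tested, 0 passed. Of the 18, 15 lay below 0 with a median of -0.16, beside 7390 of 14862 genes tested and a median of 0.0020. Among those 15, CBX7 replicate 1 had a lower CPM than CBX7 replicate 2 for all but COP1, DET1 and PEA15. The 3 with the smallest p were RASA1, a RAS GTPase-activating protein (-0.35, standard error 0.20), ATXN1, a cofactor of CIC (-0.39, standard error 0.23), and ETV3, an ETS-family repressor (-0.31, standard error 0.18), each with an adjusted p = 0.951 in edgeR. The highest by level were PEA15, which binds ERK in the cytoplasm (210.8 TPM, log2 fold change -0.0030, standard error 0.13), and the adaptor GRB2 (84.12 TPM, 0.048, standard error 0.12). Without CBX7 replicate 1 the log2 fold changes of RASA1, ATXN1 and ETV3 were -0.12, -0.14 and -0.11, each nearer to 0 than with all libraries. Without CBX7 replicate 2, where 35.5% of all genes were called, they were -0.61, -0.68 and -0.53 and all 3 passed (adjusted p = 2.494e-06, 0.00208 and 0.00021 in edgeR). Across all 3 lists, chosen with earlier results of these data known, 49 of 52 genes were tested. At an unadjusted p under 0.05, ARC, PHLDA2 and PHLDA3 were higher and 0 were lower, a share of the 49 near the 4.74% of all genes, of which 3.42% were higher and 1.32% lower.

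**Figure D5:**
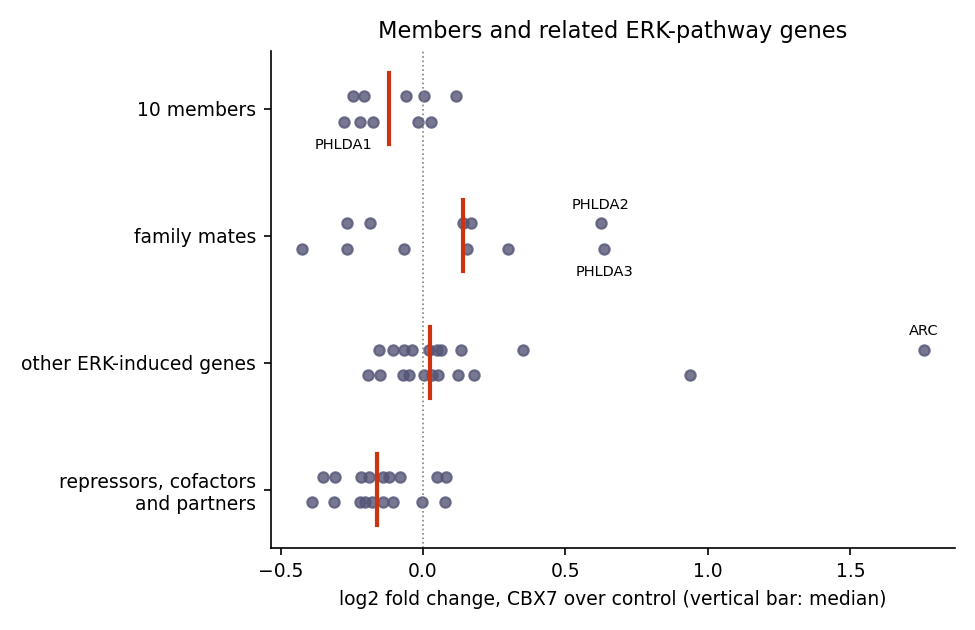
Log2 fold change in CBX7 over control cells for the 10 members, their family mates, other ERK-induced genes and repressors, cofactors and partners; each point is 1 gene and the red bar is the median of its row. Medians are -0.12, 0.14, 0.026 and -0.16, and ARC at 1.76 lies furthest from 0.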

How the data were processed

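The authors deposited, for each gene and library, an expected count that need not be whole (88.2% to 88.9% of values were whole), a TPM value with its group means, a length, and their own fold change, p-value and call, which were not used. No per-sample column was left unmapped. The submitters' processing notes name cutadapt 1.9.1, HISAT2 2.0.1, HTSeq 0.6.1, DESeq2 and hg19 without roles. HTSeq gives whole counts and these were not all whole, so the tool and build behind the counts are not settled. Of 60623 identifiers, 58516 (96.5%) were found in GENCODE 29 on GRCh38, used for coordinates only. RefSeq promoters were those of GRCh38.p14. Libraries were made with random primers from total RNA.

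After rounding, low counts were removed with filterByExpr and libraries normalized by TMM. The quasi-likelihood test of edgeR 4.0.16 (R 4.3.3) compared the groups with no covariate, and p-values were adjusted by Benjamini-Hochberg over 14862 genes. Standard errors are the log2 fold change over the square root of F, and 95% intervals use the fit's degrees of freedom. The median standard error over all genes was 0.192 on the log2 scale. A count of 0 allows up to 3 counts, 0.119 to 0.144 CPM, for counting error only. Replicates were not copies of each other (chi-square per degree of freedom 7.87 in control and 78.4 in CBX7 cells). DESeq2 1.42.0 and limma 3.58.1 on log2(TPM + 1) or log2(TPM + 0.1) were alternatives, as were other scalings, filters, a replicate block and leaving out each library. The script was tested on simulated data. Length corrections subtract, per library, a lowess curve (span 0.3) of log2 CPM deviations on log2 length. Genes named are the members, CBX7, family mates, and per list the 3 smallest p and the 2 highest mean TPM. Members and lists were chosen with earlier results of these data known.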

Additional observations from a re-analysis of the deposited data

How the results depend on the processing

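No member passed an adjusted p of 0.05 under any alternative that kept all 4 libraries. Leaving out 1 library each gave 0 to 4 members, the 4 being those without CBX7 replicate 2. For the other comparisons the counts moved. Genes past the threshold, 3 in the main test, numbered 67 with DESeq2, 265 with no filter, 361 with the replicate block, 270 with the replicate block and length correction, 36 with correction for implied length, 328 with that correction and the replicate block, 1 at an adjusted p under 0.01, and 45 to 5491 with 1 library left out. Genes of the 3 related lists, 0 in the main test, numbered 1 (ARC) with DESeq2, with no filter and with correction for implied length. They numbered 3 (ARC, PHLDA2 and PHLDA3) with the replicate block, alone and with implied length. With the block and length correction there were 2 (ARC and PHLDA2). For these lists the count with 1 library left out is not given, because such a fit has 1 library in a group. Deviations from the group means correlated at 0.305 between libraries of the same number over 14862 genes and at 0.613 over the 11077 with a mean of 100 counts or more, but the labels do not say that a number marks a batch and there are 2 pairs, so the block is given here only; it changed no call on a member, while PHLDA2 and PHLDA3 had adjusted p of 0.0158 and 0.01558 with the block alone.

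Of 180 alternative values for the members, 156 kept direction and side of the threshold, 20 had the opposite sign and 4 newly passed. On the log2 scale ETV5 went from 0.0050 to -0.0030 with DESeq2 size factors and with DESeq2, -0.0020 with upper-quartile scaling, -0.043 with length correction, -0.056 with the block and length correction, -0.15 with TPM + 1 and -0.15 with TPM + 0.1. ETV4 went from 0.12 to -0.015 with TPM + 1 and with TPM + 0.1. EGR1 went from 0.028 to -0.043 with TPM + 1 and -0.096 with TPM + 0.1. TPM scaling moved the median of all genes to -0.081 and -0.10 with those pseudocounts. SPRED1 went from -0.18 to 0.0070 with correction for implied length and 0.0090 with the block added. With 1 library left out, ETV4 ranged from 0.027 to 0.21, SPRY4 from -0.39 to -0.11, SPRED2 from -0.39 to -0.04, ETV5 from -0.14 to 0.14, FOSL1 from -0.14 to 0.091, SPRED1 from -0.44 to 0.050, EGR1 from -0.25 to 0.27 and IER3 from -0.18 to 0.047. Causes were not tested. EGR1, with 53 to 70 counts per library, had the least precise difference.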

Other observations

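The transcript length implied by the ratio of count to TPM differed from the deposited length for many genes. Of 11077 genes with a mean count of 100 or more, the implied length was over 1.5 times the deposited one for 7.05% and the deposited one was over 1.5 times the implied one for 15.6%. Among the 10 ERK-induced genes, SPRED2 (3.71 times) and ETV5 (1.81 times) were past that ratio. For SPRED2 the choice of length moved the corrected log2 fold change from -0.30 (standard error 0.23) with the deposited length to -0.10 (standard error 0.078) with the implied length, and neither passed the adjusted threshold in edgeR.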
